A study of Mus musculus with 12 samples.

Results

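The acute phase proteins described here are serum amyloid A (Saa1, Saa2 and Saa3), orosomucoid (Orm1, Orm2 and Orm3), lipocalin 2 (Lcn2), haptoglobin (Hp), serum amyloid P component (Apcs) and C-reactive protein (Crp). They were taken as the rows of the count table with these gene symbols, which gave 10 of 55357 genes. Liver RNA of 12 male C57BL/6J mice was sequenced after 6 weeks of diet, from 7 to 13 weeks of age, to ask how loss of PPARα in hepatocytes and a steatohepatitis diet change the liver. PPARα is the nuclear receptor that switches on fatty acid oxidation genes in the liver, and CDAHFD is a high-fat diet without choline and with defined amino acids. WT mice (PPARa fl/fl AlbuminCre +/+) gave 4 libraries on chow (WT chow) and 3 on CDAHFD (WT CDAHFD). Hepatocyte-specific KO mice (PPARa fl/fl AlbuminCre Tg/+) gave 2 libraries on chow (KO chow) and 3 on CDAHFD (KO CDAHFD). The floxed allele is thus carried by both genotypes, and Cre is driven by the albumin promoter, so cells other than hepatocytes keep the gene. Libraries were treated as coming from separate mice, which the labels do not state, and the groups are those of the labels although the study's text gives the same number of mice for every group. If libraries shared a mouse, the p-values would measure only the spread between libraries.

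In an acute phase response, cytokines of the interleukin 6 and interleukin 1 families reach the hepatocyte, where STAT3, C/EBP and NF-kappaB factors raise the transcription of a set of secreted proteins. These proteins bind lipids, iron carriers, haemoglobin or microbial surfaces, and in mice serum amyloid A and orosomucoid respond strongly while Crp, a major reactant in humans, responds little. Saa3 and Lcn2 are also made outside hepatocytes, by macrophages, neutrophils and epithelia among others. In RNA of whole liver, a change in the number of cells of a type and a change in the RNA of each cell cannot be told apart.

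Promoter windows are shown for Saa2, Saa3, Orm2, Orm3, Lcn2 and Crp. Those of Saa1 and Apcs are left out, although the level of Apcs also differed between groups. The windows run from 250 bases before to 50 bases after the start given by RefSeq on GRCm38.p6, they are written in the direction of the gene, and 8 of the 10 members had one (Hp and Orm1 did not). Saa2 lies on the forward strand at chr7:46751583-46751882, Saa3 on the reverse strand at chr7:46715627-46715926, Orm2 on the forward strand at chr4:63362199-63362498, Orm3 on the forward strand at chr4:63355908-63356207, Lcn2 on the reverse strand at chr2:32387690-32387989 and Crp on the forward strand at chr1:172697806-172698105. Capitals mark matches, on either strand, to a C/EBP type motif (TTGCNNAA), a STAT3 type motif (TTCNNNGAA) or an NF-kappaB type motif (GGNNTTTCC).
Saa2: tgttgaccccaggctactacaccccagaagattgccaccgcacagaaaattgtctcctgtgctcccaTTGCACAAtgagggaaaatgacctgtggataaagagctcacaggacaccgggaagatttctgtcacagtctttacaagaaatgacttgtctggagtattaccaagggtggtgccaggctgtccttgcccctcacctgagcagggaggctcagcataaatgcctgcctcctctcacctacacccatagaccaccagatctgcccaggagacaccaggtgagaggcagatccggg
Saa3: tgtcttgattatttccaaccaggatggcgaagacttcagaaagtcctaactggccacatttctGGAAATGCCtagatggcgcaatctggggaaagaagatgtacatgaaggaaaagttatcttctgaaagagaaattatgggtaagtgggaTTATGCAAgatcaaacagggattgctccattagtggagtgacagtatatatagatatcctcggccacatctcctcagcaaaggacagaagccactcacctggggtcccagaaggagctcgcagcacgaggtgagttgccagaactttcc
Orm2: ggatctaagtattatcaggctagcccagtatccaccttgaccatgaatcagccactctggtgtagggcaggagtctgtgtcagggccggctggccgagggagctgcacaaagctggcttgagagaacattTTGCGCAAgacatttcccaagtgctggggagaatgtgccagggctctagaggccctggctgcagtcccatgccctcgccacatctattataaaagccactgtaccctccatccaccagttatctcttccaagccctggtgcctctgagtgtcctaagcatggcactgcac
Orm3: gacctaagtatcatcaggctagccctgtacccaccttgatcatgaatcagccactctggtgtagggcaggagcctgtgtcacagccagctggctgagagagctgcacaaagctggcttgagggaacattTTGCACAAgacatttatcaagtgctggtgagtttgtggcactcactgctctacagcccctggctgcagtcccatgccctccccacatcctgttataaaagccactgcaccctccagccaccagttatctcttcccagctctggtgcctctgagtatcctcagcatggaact
Lcn2: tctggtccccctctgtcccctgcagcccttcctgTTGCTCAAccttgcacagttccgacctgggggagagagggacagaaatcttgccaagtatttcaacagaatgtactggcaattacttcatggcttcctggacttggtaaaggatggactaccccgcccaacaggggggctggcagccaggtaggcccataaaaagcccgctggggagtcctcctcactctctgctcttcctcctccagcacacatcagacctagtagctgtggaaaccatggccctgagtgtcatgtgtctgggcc
Crp: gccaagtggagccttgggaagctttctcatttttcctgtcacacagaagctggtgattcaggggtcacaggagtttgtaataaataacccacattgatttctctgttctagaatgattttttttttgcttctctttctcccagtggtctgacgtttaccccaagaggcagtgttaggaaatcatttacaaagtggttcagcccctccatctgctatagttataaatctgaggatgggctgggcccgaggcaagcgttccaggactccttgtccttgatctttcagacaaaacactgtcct

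The letters of the C/EBP type were found in 6 of the 8 windows (Saa1, Saa2, Saa3, Orm2, Orm3 and Lcn2) and in 10.8% of the 32851 mouse promoter windows searched in the same way. The match began 183 bases before the start in Saa2, 120 bases before it in Orm2 and 121 bases before it in Orm3. The STAT3 type was found in the window of Apcs and in 8.30% of all windows, and the NF-kappaB type in that of Saa3 and in 5.82% of all windows. A direct repeat of the PPAR-RXR type, with up to 2 mismatches, was found in the windows of Saa1 and Saa2 and in 3.86% of all windows; it is not in capitals. The window of Crp held none of these letters. The windows of Saa1 and Saa2 were 95.3% identical and those of Orm2 and Orm3 86.2%, while all other pairs of members were between 44.4% and 51.9%. A match is a description of the letters and not of a bound site.

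Saa1, Saa2 and Saa3 are neighbours on chromosome 7 (Saa1 at chr7:46740497-46742980, Saa2 at chr7:46751790-46754313, Saa3 at chr7:46711998-46715700), and the orosomucoid genes form a row on chromosome 4 (Orm1 at chr4:63344560-63348163, Orm3 at chr4:63356162-63359511, Orm2 at chr4:63362449-63365878). The other members are Lcn2 at chr2:32384633-32388252, Hp at chr8:109575128-109579172, Apcs at chr1:172893961-172895041 and Crp at chr1:172698055-172833031 (GRCm38). No exon of a member overlaps an exon of another gene in the annotation used. Neighbours in these families are close in sequence and can exchange reads in alignment, so the split between Saa1 and Saa2, and that among the 3 orosomucoid genes, is uncertain.

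The libraries held between 29906785 and 43551003 counts, and 17358 genes passed the filter on low counts, including all 10 members. Orm3 passed with the CDAHFD libraries, where all 6 were above the minimum of the filter, against 1 of 4 in WT chow and 1 of 2 in KO chow. Levels are given as CPM, a gene's count relative to the size of its library after TMM scaling, which corrects for library composition. The targeted gene Ppara stood between 96.2 and 238 CPM in WT chow, between 59.5 and 75.5 in WT CDAHFD, at 14.4 and 38.7 in KO chow, and between 20.7 and 51.9 in KO CDAHFD, so each KO library was below each WT library. All 10 hepatocyte markers listed, albumin among them, were detected, and their summed level was between 100227 and 120606 CPM in WT chow and between 51085 and 92003 in the other groups.

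A single library stood apart in these genes. WT chow replicate 1 was above each of the other 3 WT chow libraries in 9 of the 10 members, and at 2 times their mean or more in 6, where 28.1% of all genes tested were above the others and 6.63% reached 2 times. The median ratio of this library to the mean of the other WT chow libraries was 4.36 over the members and 0.984 over all genes tested. Of 30 other genes listed as positive acute phase genes, 22 were above the other WT chow libraries, with a median ratio of 1.38. Of 16 listed as negative, 13 were below them, with a median ratio of 0.825, where 4652 of the 17358 genes tested were below. Among the former, which were picked after their values were seen, Saa4, the constitutive serum amyloid A, was at 1277 CPM against 344 to 463, and Lbp, which hands bacterial lipopolysaccharide to CD14, was at 333 CPM against 106 to 115. The neutrophil markers also stood higher in this library, at a summed 15.7 CPM against 3.21 to 4.37, with 8 of the 12 tested above the other WT chow libraries and Ngp, Camp, Ltf, Mpo, Ly6g, Stfa2l1 and Fcnb at 0 in it. Nothing in the labels sets this library apart, so the main values keep it and each result that rests on it is also given without it. The cause was not tested.

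**Figure D1:**
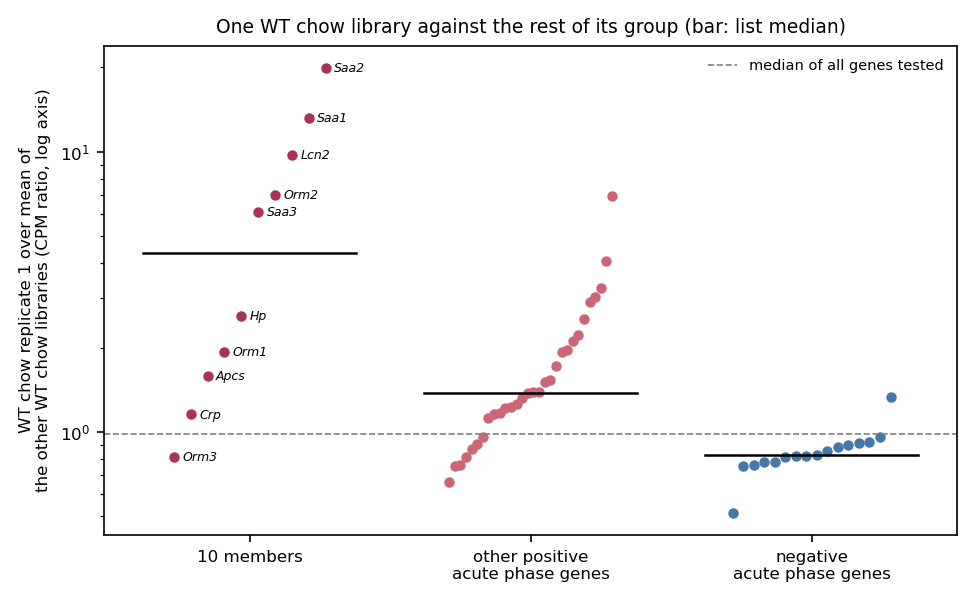
Ratio of WT chow replicate 1 to the mean of the other 3 WT chow libraries, in CPM on a log axis, for each gene of 3 lists, with bars at the list medians and a dashed line at the median of all genes tested. Of the 10 members, only Orm3 lies below 1, and Saa2 is highest at 19.9.

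Serum amyloid A, the lipid-binding protein that rides on high-density lipoprotein during inflammation, was low in 3 of the 4 WT chow livers and raised in most others. Saa1 was at 668, 52.9, 43.9 and 54.5 CPM in WT chow, at 209, 213 and 194 in WT CDAHFD, at 162 and 88.5 in KO chow, and at 204, 199 and 143 in KO CDAHFD. Saa2, its close paralog, was at 274, 13.1, 17.2 and 10.96 CPM in WT chow, at 99.8, 101 and 87.4 in WT CDAHFD, at 75.8 and 40.4 in KO chow, and at 106, 97.1 and 67.3 in KO CDAHFD. For both genes the highest of all 12 libraries was WT chow replicate 1 and the lowest 3 were the other WT chow libraries, so WT chow overlapped with the other groups through that library alone. KO CDAHFD overlapped with both WT CDAHFD and KO chow. Saa3, the form that macrophages and other cells outside the hepatocyte also make, was at 34.1, 4.19, 6.90 and 5.64 CPM in WT chow, at 33.0, 34.4 and 30.7 in WT CDAHFD, at 27.0 and 14.3 in KO chow, and at 30.9, 33.0 and 15.7 in KO CDAHFD. Here too WT chow replicate 1 reached the level of the CDAHFD libraries while the other WT chow libraries lay below all others.

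With all 12 libraries, none of the 3 serum amyloid A genes passed the test in any comparison (adjusted p from 0.0656 for Saa3 in WT CDAHFD against WT chow, edgeR's quasi-likelihood test). The log2 fold change of WT CDAHFD against WT chow was 0.01 ± 0.78 (SE) for Saa1, 0.28 ± 0.89 for Saa2 and 1.37 ± 0.58 for Saa3. Without WT chow replicate 1, all 3 genes were called higher than WT chow in each of the other groups. Saa1 was then 2.51, 4.14 and 3.69 times the WT chow level, in the order KO chow, WT CDAHFD, KO CDAHFD (adjusted p = 0.000477, 6.69e-06 and 1.20e-05). The corresponding ratios were 4.25, 7.07 and 6.68 for Saa2 and 3.74, 5.97 and 4.86 for Saa3. The calls of Saa1 and Saa2 against WT chow were made only when this library was left out. Saa3 was also called with all 12 libraries kept under some alternatives, in WT CDAHFD without the filter on low counts (log2 1.42, adjusted p = 0.00203), with the clock score as covariate (1.27, adjusted p = 0.0245), with the replicate block (1.52, adjusted p = 0.0295) and with library size only (1.88, adjusted p = 0.0175), and in KO CDAHFD under all of these but the block (adjusted p = 0.0161, 0.0190 and 0.0337).

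**Figure D2:**
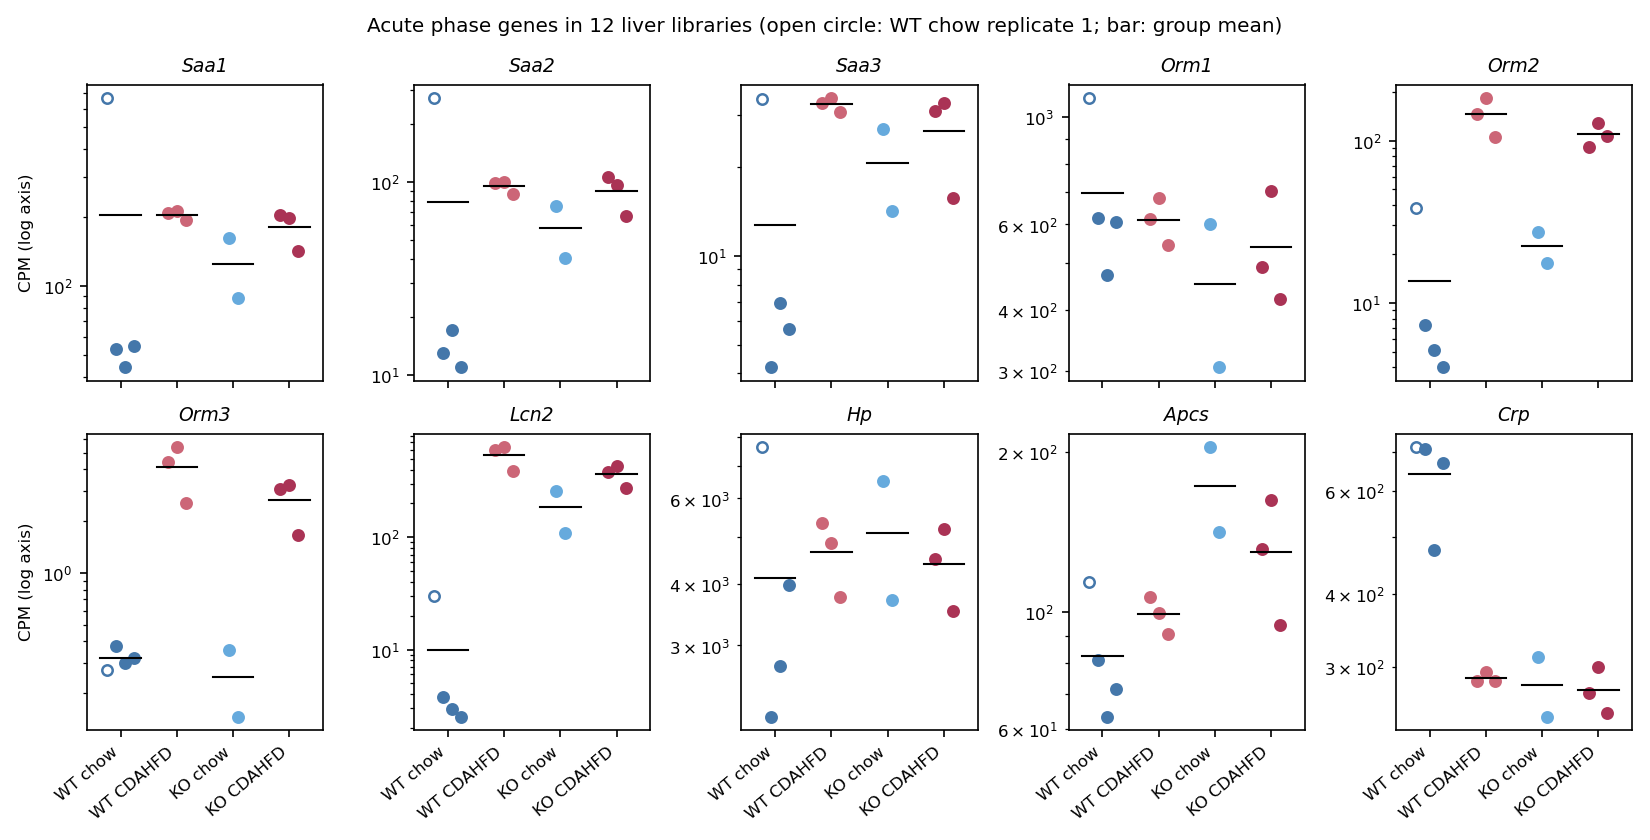
Level of each member in every library, in CPM on a log axis whose range differs between panels, by group, with bars at the group means and an open circle for WT chow replicate 1. For Saa1, Saa2, Saa3, Orm2 and Lcn2 the open circle lies far above the other WT chow points, and for Orm1 and Hp it lies above them by less. Crp is high in all 4 WT chow libraries and Orm3 is high only in the CDAHFD groups.

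Lcn2, which binds bacterial siderophores and so withholds iron, showed the largest change against WT chow among the members. It was at 30.01, 3.75, 2.97 and 2.52 CPM in WT chow, at 601, 632 and 386 in WT CDAHFD, at 259.7 and 109 in KO chow, and at 378, 432 and 275 in KO CDAHFD. Every library of the other groups lay above all 4 WT chow libraries, including replicate 1. Lcn2 was 18.8 times the WT chow level in KO chow (log2 4.24 ± 0.78 SE, adjusted p = 0.000979), 55.1 times in WT CDAHFD (5.78 ± 0.80, adjusted p = 6.13e-05) and 37.0 times in KO CDAHFD (5.21 ± 0.78, adjusted p = 0.000112). Without WT chow replicate 1 these ratios were 60.0, 176 and 119. The CDAHFD groups were not separated from each other (log2 -0.58 ± 0.73 for KO CDAHFD against WT CDAHFD, adjusted p = 0.876), and KO chow was not called lower than WT CDAHFD (-1.55 ± 0.86, adjusted p = 0.295), although both of its libraries were below all 3 of WT CDAHFD and the call was made without WT chow replicate 1 (-1.56 ± 0.34, adjusted p = 0.0192).

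Orosomucoid, an abundant glycoprotein that carries basic drugs and lipids, is encoded by 3 genes that behaved unlike each other. Orm1, the main form of adult liver, was at 1094, 618, 473 and 607 CPM in WT chow, at 616, 680.2 and 543 in WT CDAHFD, at 601 and 304 in KO chow, and at 490.2, 703 and 421 in KO CDAHFD. The 4 groups overlapped, and Orm1 was not called in any comparison, with or without WT chow replicate 1, although with the clock score as covariate it was called lower in KO chow (log2 -0.74, adjusted p = 0.0241). With and without WT chow replicate 1 the log2 fold changes against WT chow ran from -0.63 to -0.19 and from -0.31 to 0.14. Orm2 was at 38.4, 7.30, 5.14 and 3.99 CPM in WT chow, at 146, 183 and 106 in WT CDAHFD, at 27.2 and 17.7 in KO chow, and at 91.9, 129 and 108 in KO CDAHFD. The CDAHFD libraries of both genotypes thus lay above every chow library, and those of KO chow lay between the 3 lower WT chow libraries and replicate 1. Orm2 was 10.6 times the WT chow level in WT CDAHFD (log2 3.40 ± 0.63 SE, adjusted p = 0.000615) and 7.99 times in KO CDAHFD (2.998 ± 0.62, adjusted p = 0.00130), and it did not pass in KO chow (0.71 ± 0.67, adjusted p = 0.432) unless WT chow replicate 1 was left out (2.04 ± 0.29, adjusted p = 0.000153).

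Orm3 was scarce, with 6 to 13 counts in each chow library and 70 to 277 in each CDAHFD library. It was at 0.272, 0.378, 0.3001 and 0.321 CPM in WT chow, at 4.41, 5.38 and 2.56 in WT CDAHFD, at 0.354 and 0.146 in KO chow, and at 3.08, 3.26 and 1.67 in KO CDAHFD. The 2 diets did not overlap in either genotype, and WT chow replicate 1 was here the lowest of its group. Orm3 was 12.8 times the WT chow level in WT CDAHFD (log2 3.68 ± 0.37 SE, adjusted p = 4.12e-06) and 10.7 times the KO chow level in KO CDAHFD (3.42 ± 0.48, adjusted p = 0.00231). KO chow did not differ detectably from WT chow at these counts (-0.37 ± 0.52, adjusted p = 0.605).

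The share of Orm2 among the counts of the 3 orosomucoid genes was 3.39%, 1.17%, 1.07% and 0.653% in WT chow, 4.34% and 5.50% in KO chow, 19.0%, 21.1% and 16.2% in WT CDAHFD, and 15.7%, 15.5% and 20.3% in KO CDAHFD. The order of the groups did not overlap from WT chow to KO chow to CDAHFD, whereas the 2 CDAHFD groups overlapped. The share of Orm3 was between 0.0240% and 0.0627% in the chow libraries of both genotypes and between 0.314% and 0.619% in the CDAHFD libraries. The sum of the 3 genes, in which reads exchanged between them cancel, was not called in any comparison (log2 0.10 ± 0.29 SE for WT CDAHFD against WT chow, adjusted p = 0.799), since Orm1 makes up most of it. The ratio of Saa2 to Saa1 counts was 0.411, 0.247, 0.392 and 0.201 in WT chow and between 0.450 and 0.521 in the other libraries, so it was lower in each WT chow library than in each library of the other groups.

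**Figure D3:**
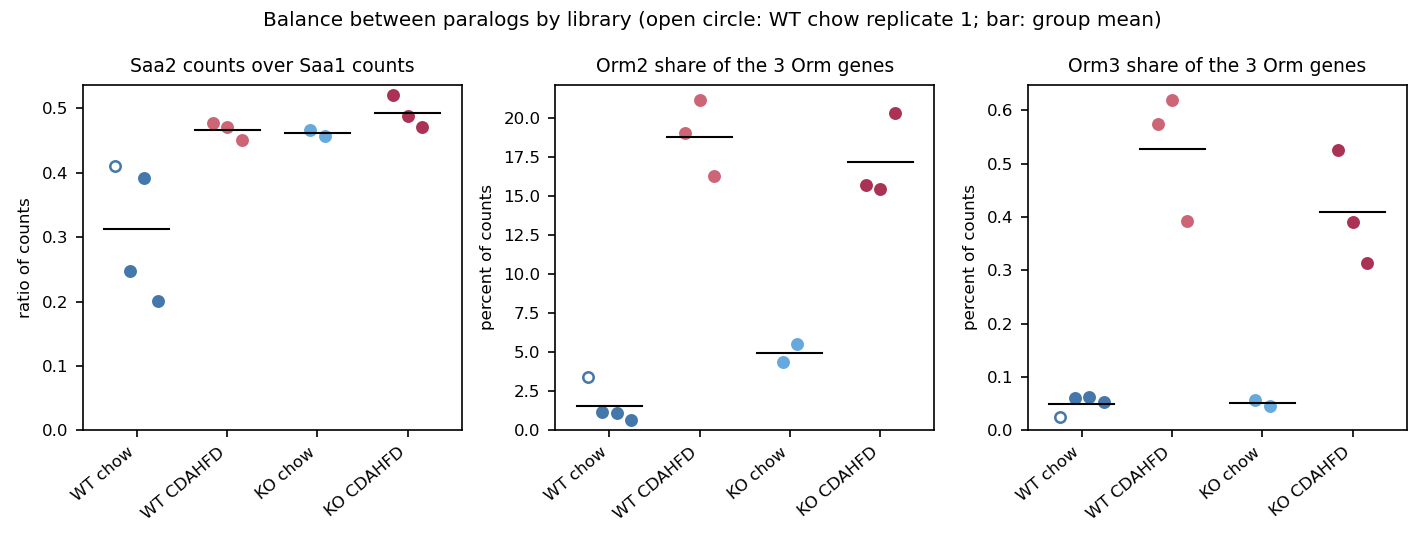
Ratio of Saa2 to Saa1 counts and the percent of orosomucoid counts held by Orm2 and by Orm3 in every library, by group, with bars at the group means and an open circle for WT chow replicate 1. Orm2 holds at most 5.50% of these counts in a chow library and at least 15.5% in a CDAHFD library.

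Hp, which binds free haemoglobin, was the most abundant member in every group and held between 59.0% and 79.6% of the members' counts in a library. It was at 7639, 2143, 2717 and 3981 CPM in WT chow, at 5336, 4854 and 3767 in WT CDAHFD, at 6506 and 3713 in KO chow, and at 4502, 5195 and 3532 in KO CDAHFD. The groups overlapped, with WT chow holding both the highest and the lowest library, and Hp was not called in any comparison of all libraries (log2 0.18 ± 0.36 SE for WT CDAHFD against WT chow, adjusted p = 0.710). Without WT chow replicate 1 it passed narrowly in KO chow (0.81 ± 0.28, adjusted p = 0.0342) and in WT CDAHFD (0.68 ± 0.25, adjusted p = 0.0389) against WT chow, but not in KO CDAHFD (0.62 ± 0.25, adjusted p = 0.0587).

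The 2 pentraxins, ring-shaped proteins that bind phosphocholine and other surface ligands, moved in opposite directions. Apcs, the main pentraxin of the mouse acute phase, was at 114, 80.8, 63.3 and 71.5 CPM in WT chow, at 106, 99.4 and 90.7 in WT CDAHFD, at 204 and 142 in KO chow, and at 131, 162 and 94.3 in KO CDAHFD. Both KO chow libraries lay above all 7 WT libraries, while KO CDAHFD overlapped with both WT groups. Apcs was 2.10 times the WT chow level in KO chow (log2 1.07 ± 0.24 SE, adjusted p = 0.00330) and 1.57 times in KO CDAHFD (0.65 ± 0.21, adjusted p = 0.0215), and the WT CDAHFD value did not pass (0.26 ± 0.21, adjusted p = 0.327). Leaving out WT chow replicate 1 gave a call (0.48 ± 0.19, adjusted p = 0.0477), as did library size only (0.81, adjusted p = 0.00678). The Apcs results also rested on single KO libraries. The KO CDAHFD call was lost without KO CDAHFD replicate 1 (0.64, adjusted p = 0.0550) and without replicate 2 (0.46, adjusted p = 0.117). The KO chow value fell from 1.07 to 0.80 without KO chow replicate 1, a fit that leaves 1 library in that group.

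Crp was at 714, 709, 475 and 670.1 CPM in WT chow, at 283, 294 and 284 in WT CDAHFD, at 311 and 246 in KO chow, and at 271, 299 and 249.9 in KO CDAHFD. All 4 WT chow libraries were above all 8 others, and replicate 1 was close to replicate 2. Crp was lower than in WT chow by 2.30 times in KO chow (log2 -1.20 ± 0.17 SE, adjusted p = 0.000155), by 2.24 times in WT CDAHFD (-1.16 ± 0.15, adjusted p = 3.61e-05) and by 2.35 times in KO CDAHFD (-1.23 ± 0.15, adjusted p = 2.05e-05). The 3 other groups stood at means of 287 (SD 6.06, n = 3), 279 (SD 46.2, n = 2) and 273 (SD 24.7, n = 3) CPM for WT CDAHFD, KO chow and KO CDAHFD, and no comparison among them was called. Leaving out WT chow replicate 1 changed none of the Crp calls.

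Levels can be set side by side between genes only per length, here as CPM per kb of exon. The length was that of all annotated exons of a gene merged. It was 2478 bases for Saa1, 2518 for Saa2 and 2623 for Lcn2, against 775 for Orm1 and Orm2. Where most transcripts are shorter than the merged exons the value is too low, so the order between genes is uncertain. In WT chow the order was Hp (2565), Orm1 (901), Crp (186), Apcs (84.8), Saa1 (82.6), Saa2 (31.3), Orm2 (17.7), Saa3 (4.88), Lcn2 (3.74) and Orm3 (0.411), as group means of CPM per kb. Neighbours in the middle of this order did not differ beyond their spread, since Saa1 in WT chow had an SD of 309 CPM around a mean of 205. In WT CDAHFD Lcn2 was at 206 CPM per kb and Orm2 at 187, and both stood behind Hp and Orm1 alone, while Crp, at 83.3, came after Apcs at 102. In KO chow the order after Hp and Orm1 was Apcs (178), Crp (80.9), Lcn2 (70.4) and Saa1 (50.6), and in KO CDAHFD it was Orm2 (141), Lcn2 (138), Apcs (133) and Crp (79.3). The members together took 0.285% to 0.877% of all counts in WT chow, 0.627% to 0.839% in WT CDAHFD, 0.480% and 0.847% in KO chow, and 0.617% to 0.819% in KO CDAHFD, and the highest of these 12 shares was that of WT chow replicate 1.

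Counted by comparison, and with the share of all genes tested that passed beside each count, 2 members were higher and 1 lower in KO chow against WT chow (all genes: 22.0% higher and 17.0% lower). In WT CDAHFD against WT chow 3 were higher and 1 lower (26.1% and 25.0%), and in KO CDAHFD against WT chow 4 were higher and 1 lower (26.9% and 25.4%). These 3 comparisons share the WT chow libraries. Each of these counts was within 2 members of what the share over all genes gives for 10 genes, and the median log2 fold change of the members was -0.03, 0.27 and 0.42, against 0.00, -0.05 and -0.04 over all genes tested. Scaling by library size alone, without TMM factors, moved the median of all genes to 0.40, 0.51 and 0.57 and the share of higher among all calls from 56.4%, 51.0% and 51.4% to 86.0%, 88.6% and 89.9%, and it turned the sign of Orm3 in KO chow, Orm1 in both CDAHFD groups and Saa1 in KO CDAHFD, none of which was called. Without WT chow replicate 1, 7 members were higher and 1 lower in KO chow (23.4% and 17.6%), 8 higher and 1 lower in WT CDAHFD (27.1% and 24.0%), and 7 higher and 1 lower in KO CDAHFD (28.0% and 23.9%). The medians were then 1.30, 2.31 and 2.08.

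Under CDAHFD the genotype made no difference that the test could show in any member. KO CDAHFD and WT CDAHFD overlapped in all 10 members, and the log2 fold changes ran from -0.63 (Orm3, ± 0.33 SE) to 0.39 (Apcs, ± 0.23 SE). The share of all genes that overlap between these groups was not worked out, so the overlap shows nothing particular to the members. No member was called, where 0.357% of all genes were called (0.432% without WT chow replicate 1). At an unadjusted p under 0.05 the count was 0 as well, and DESeq2 called none. The SE was 0.84 for Saa1 and 0.96 for Saa2, so that a change of 2 times in either direction lay within 2 SE of both estimates, and it was 0.20 and 0.23 without WT chow replicate 1. KO CDAHFD against KO chow, the diet change in KO mice, had 1 member higher (Orm3) and none lower (all genes: 3.76% and 2.44%), and 2 higher, Orm2 and Orm3, without WT chow replicate 1 (5.11% and 3.17%). KO chow against WT CDAHFD had none higher and 1 lower, Orm3 (2.71% and 3.42%), and without WT chow replicate 1 Apcs was higher and Orm2, Orm3 and Lcn2 lower (3.82% and 4.64%). These comparisons hold no WT chow library, and leaving it out acts on them through the shared scaling, estimate of the spread, filter and adjustment over all genes.

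**Figure D4:**
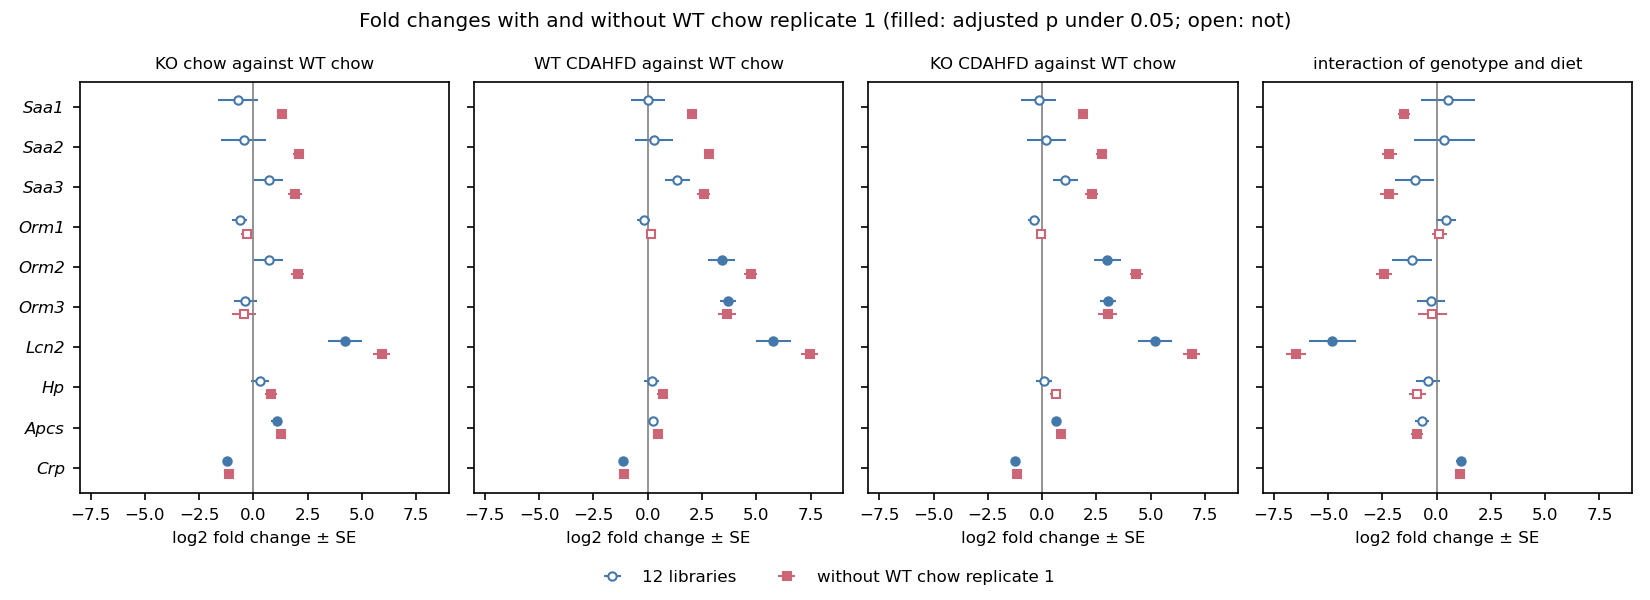
Log2 fold change of each member with its SE in the 3 comparisons with WT chow and in the interaction of genotype and diet, from all 12 libraries (circles) and without WT chow replicate 1 (squares), filled where the adjusted p is under 0.05. Leaving out this library moves the serum amyloid A genes, Orm2 and Lcn2 to the right in the comparisons with WT chow and moves Crp and Orm3 little.

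The interaction compares the change with diet in KO mice with that in WT mice. It was lower for Lcn2 (log2 -4.81 ± 1.08 SE, adjusted p = 0.00630), whose log2 change with the diet was 5.78 in WT mice and 0.97 in KO mice, and higher for Crp (1.13 ± 0.23, adjusted p = 0.00338), whose log2 change was -1.16 in WT mice and -0.03 in KO mice. These were the only 2 members called, 1 in each direction, where 8.63% of all genes were called higher and 14.5% lower. Orm3 rose with the diet in both genotypes, by 3.68 and 3.42, and its interaction was -0.26 ± 0.63 (adjusted p = 0.818). Without WT chow replicate 1, Saa1, Saa2, Saa3, Orm2, Lcn2 and Apcs were lower and Crp was higher, so 6 and 1 members were called where 16.2% and 10.5% of all genes were.

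The genes that carry the signal upstream of these proteins moved unevenly. Of 16 cytokines and receptors tested, 9 were higher and 2 lower in WT CDAHFD against WT chow, 7 higher and 4 lower in KO chow, and 9 higher and 2 lower in KO CDAHFD, with the same background shares as above. Il6, the main hepatic inducer, was at most 0.218 CPM in any library and was not tested. Lif and Osm passed the filter on low counts only through groups other than WT chow, so they could hardly be called lower against it. The 3 genes named for the size of their change were Lif, a cytokine of the interleukin 6 family with no count in 2 of the 4 WT chow libraries (log2 5.62 ± 0.61 SE in WT CDAHFD, adjusted p = 8.24e-06), Il1rn, the interleukin 1 receptor antagonist (4.08 ± 0.26, adjusted p = 1.24e-07), and Tnf (3.49 ± 0.28, adjusted p = 6.93e-07). Among the receptors, Il6ra was lower in KO chow (-0.95 ± 0.34, adjusted p = 0.0412) and gave -0.45 ± 0.29 in WT CDAHFD (adjusted p = 0.219), Il6st, the shared signal chain, was at -0.05 ± 0.16 in WT CDAHFD (adjusted p = 0.797), and Tnfrsf1a was higher there (0.42 ± 0.11, adjusted p = 0.00537). Il1r1 was at 120 CPM in WT chow replicate 1 and between 25.5 and 65.2 in the rest of that group, and its lower call in KO chow (-1.19 ± 0.44, adjusted p = 0.0484) was lost without that library (-0.69, adjusted p = 0.0965).

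Of 24 signalling molecules and transcription factors of the response, 6 were higher and 5 lower in WT CDAHFD, 4 and 5 in KO chow, and 5 and 5 in KO CDAHFD, each against WT chow, and their median log2 fold changes were 0.07, -0.10 and -0.02. These counts lay near the shares over all genes given above, so they show nothing particular to the list, and the genes that follow are single values. Stat3, which carries the interleukin 6 signal to these genes, was at 256 CPM in WT chow replicate 1 and between 114 and 165 in all others, and was not called. Cebpd, a C/EBP factor induced in the response, was higher in WT CDAHFD (log2 1.63 ± 0.32 SE, adjusted p = 0.00102), in KO chow (1.24 ± 0.35, adjusted p = 0.0143) and in the KO CDAHFD group (1.14 ± 0.32, adjusted p = 0.00968), although an overlapping gene on the other strand held counts equal to 52.7% of its own. Cebpb was at -0.04 ± 0.42 in WT CDAHFD (adjusted p = 0.939). Nfkb2, with an overlapping gene at 12.7% of its counts, was higher in all 3 groups (1.63 ± 0.41 in WT CDAHFD, adjusted p = 0.00546, and 2.44 without WT chow replicate 1, which was at 37.6 CPM against 8.03 to 11.1 in its group), as was Socs1, an inhibitor of cytokine signalling (1.29 ± 0.40, adjusted p = 0.0155), while its relative Socs3 was at 0.95 ± 0.38 (adjusted p = 0.0520) and passed without WT chow replicate 1 (1.11, adjusted p = 0.0416). Nfkbiz, a nuclear partner of NF-kappaB, was higher in WT CDAHFD (1.002 ± 0.25, adjusted p = 0.00436), Nfkbia was at -0.01 ± 0.13 (adjusted p = 0.940), and Nr3c1, the glucocorticoid receptor, was lower (-0.47 ± 0.12, adjusted p = 0.00612).

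Of 30 other positive acute phase genes tested, 5 were higher and 16 lower in WT CDAHFD against WT chow, 6 higher and 14 lower in KO chow, and 4 higher and 16 lower in KO CDAHFD, and their median log2 fold changes were -0.67, -0.55 and -0.71. Without WT chow replicate 1 the counts in WT CDAHFD were 9 higher and 16 lower (all genes: 27.1% and 24.0%). The 3 named for the size of their change were Il1rn, Cd14, the co-receptor for lipopolysaccharide (3.80 ± 0.27 SE, adjusted p = 2.30e-07), and Mt1, a metallothionein (3.78 ± 0.31, adjusted p = 8.50e-07). Saa4, named after its values were seen, was at 166 to 181 CPM in WT CDAHFD, at 113 and 125 in KO chow and at 135 to 163 in KO CDAHFD, all below the 344 CPM of the lowest WT chow library, and was called lower in each (-1.81 ± 0.38 in WT CDAHFD, adjusted p = 0.00171, and -1.14 without WT chow replicate 1). Of 16 negative acute phase genes, none was higher in any of the 3 comparisons, and 15 were lower in WT CDAHFD, 13 in KO CDAHFD and 10 in KO chow (all genes: 25.0%, 25.4% and 17.0% lower). They included Igfals, which holds circulating IGF1 (-1.64 ± 0.18, adjusted p = 7.70e-06), Ttr, the thyroxine carrier (-1.47 ± 0.16, adjusted p = 6.66e-06), and Apoa2 (-1.41 ± 0.18, adjusted p = 2.77e-05), the values being those of WT CDAHFD.

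Among 18 receptors and partners of the members, 11 were higher and 2 lower in WT CDAHFD (all genes: 26.1% higher and 25.0% lower). Cd163, the macrophage receptor for complexes of haptoglobin and haemoglobin, was at 16.5 to 26.5 CPM in WT chow, at 0.524 to 1.25 in WT CDAHFD, at 6.58 and 5.53 in KO chow and at 0.4995 to 4.17 in KO CDAHFD, and was called lower than WT chow in all 3 (log2 -4.40 ± 0.54 SE in WT CDAHFD, adjusted p = 2.45e-05). Lrp2, the endocytic receptor that takes up lipocalin 2, was lower in WT CDAHFD (-3.02 ± 0.53, adjusted p = 0.000429, and -2.36 without WT chow replicate 1, which was at 13.04 CPM against 2.99 to 5.87), and Cd36, a scavenger receptor that also binds serum amyloid A, was higher (4.21 ± 0.22, adjusted p = 2.41e-08).

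Markers of other cells moved with the same groups. The counts of markers called in WT CDAHFD against WT chow stand beside 26.1% of all genes called higher and 25.0% called lower. Neutrophil markers, whose summed level was 3.21 to 15.7 CPM in WT chow, were at 27.6 to 33.2 in WT CDAHFD, 24.4 and 37.7 in KO chow, and 26.7 to 31.3 in KO CDAHFD, with 9 of 12 tested called higher in WT CDAHFD and none lower. Their largest part came from Csf3r, S100a8 and S100a9, while the granule genes Camp, Ltf and Mpo were at 0 in all WT chow libraries and at most 0.471 CPM elsewhere. Camp, Ltf, Mpo, Ngp and Il1f9 passed the filter on low counts only through groups other than WT chow. They could hardly be called lower against WT chow, so the filter fixed the direction of any call for them. Macrophage markers were at a summed 356 to 656 CPM in WT chow and 1310 to 2249 in the other groups. Of 14 tested, 10 were called higher in WT CDAHFD, among them Trem2, Itgax and Cx3cr1, and 1 lower. Lyz2 held the largest part of the sum in WT CDAHFD, at 755 to 1150 CPM. Timd4 went the other way, from at least 7.38 CPM in each WT chow library to at most 0.677 in WT CDAHFD. Clec4f, Vsig4 and Marco overlapped between these groups. Cholangiocyte markers were at 31.5 to 52.2 CPM in WT chow and 52.7 to 149 in the other groups, with 6 of 7 called higher in WT CDAHFD, among them Epcam, Cftr and Tspan8. Of 6 mesothelial markers 2, Wt1 and Gpm6a, were called higher there, and the adipocyte genes Adipoq, Plin1 and Lep were at most 0.0917 CPM in any library, although Fabp4 and Cidec, which other cells also express, were higher. All 10 hepatocyte markers were lower in WT CDAHFD. The part of these cells in the levels of Lcn2 and Saa3, which they can express, was not tested.

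**Figure D5:**
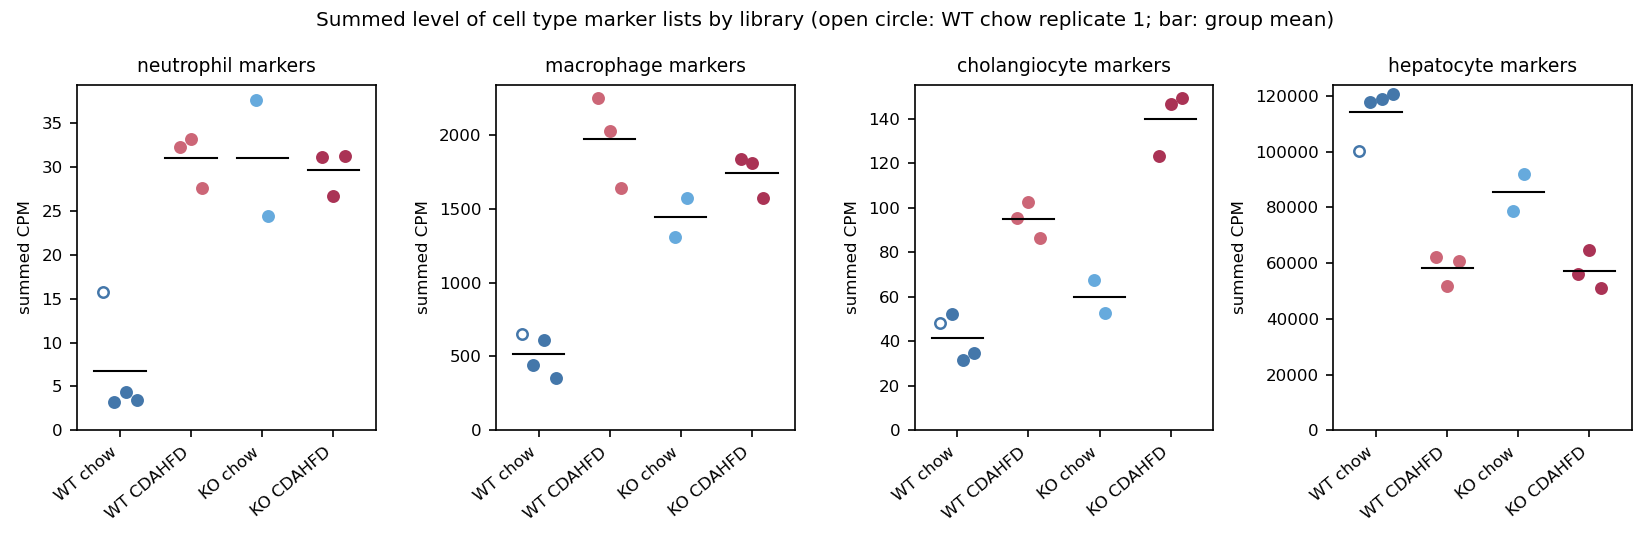
Summed CPM of 4 lists of cell type markers in every library, by group, with bars at the group means and an open circle for WT chow replicate 1. Neutrophil, macrophage and cholangiocyte markers are lowest in WT chow, and the hepatocyte markers are highest there.

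Clock genes and globin genes also varied among the libraries. Clock genes differed between libraries of the same group, with a score of evening against morning genes of -3.27, -2.94, 2.47 and 2.67 (log2) in WT chow, from -1.88 to -0.93 in WT CDAHFD, -2.77 and 0.89 in KO chow, and -1.42, -1.40 and 3.34 in KO CDAHFD. WT chow replicates 1 and 2 had like scores, and their levels differed in most members but were close in Crp (714 and 709 CPM). The KO chow library with the higher score, replicate 2, was the lower of the 2 in all 10 members, and the KO CDAHFD library with the highest score, replicate 3, was the lowest of its group in 9, all but Orm2, where 50.1% and 40.7% of all genes tested were lowest in these libraries. In WT chow and WT CDAHFD the library with the highest score was the lowest in 3 and 1 of the 10 members, against 24.9% and 28.9% of all genes. The clock score was also fitted as a covariate, and the values that changed are given in the closing section. Whether the clock caused these differences in level was not tested. The 4 globin genes, a sign of blood in the sample, summed to 266 CPM in WT chow replicate 1, to 104 to 165 in the other WT chow libraries, to 370.5 and 160.3 in KO chow and to 68.8 to 127 in the CDAHFD libraries, and their part in the levels of the members was not tested.

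Across the 12 libraries, which share their groups, the pattern of Saa1 was most like that of Saa2 (Pearson r of log2 CPM 0.97) and then of Saa3 (0.88) among 13364 genes compared. That of Lcn2 was most like those of Tpd52 (0.995), Pf4 (0.990) and Card9 (0.989), that of Orm2 like Ccn5 (0.978), that of Orm3 like Vnn3 (0.968), that of Apcs like Ptma (0.961) and that of Crp like Aadat (0.984). The pattern of Hp was most like that of Myd88 (0.934), whose counts can hold reads of the overlapping gene Acaa1a, and that of Orm1 like R3hcc1l (0.878), the lowest of these values. Among the members, Lcn2 and Orm2 gave an r of 0.93 over the 12 libraries and 0.95 without WT chow replicate 1, while Saa1 and Lcn2 gave 0.65 and 0.97. Crp ran against Lcn2, at -0.85 and -0.90.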

How the data were processed

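Liver RNA of 12 mice in 4 groups was sequenced from non-directional poly-A libraries. The deposited values are raw counts per gene, made by the authors with FastQC 0.11.5, STAR 2.7.3a and the GRCm38 genome, as listed in the submitters' processing notes. Gene symbols, positions and exon lengths came from GENCODE M21. Library totals ran from 29906785 to 43551003 counts with a median of 36989922, and intervals of counting error were not needed for replicated values.

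Counts were scaled with TMM factors and tested with edgeR 4.0.16 (R 4.3.3) by the quasi-likelihood test, in a fit of all 4 groups with no covariate, on the 17358 of 55357 genes that passed filterByExpr (minimum count 10). P-values were adjusted by Benjamini-Hochberg over all genes tested, and a call is an adjusted p under 0.05. The fit gave 7 comparisons. SEs were derived from the fold change and the F statistic. The steps were tested on simulated data. Alternatives were RLE scaling, library size only, no filter, DESeq2 1.42.0, the replicate number as a block, a clock score as covariate, only the groups compared, summed paralogs, and each library left out. Values of the gene lists without WT chow replicate 1 were added after seeing the data. Libraries of a group differed by more than sampling noise, so none was counted as a duplicate. Figures were drawn with matplotlib 3.10.9.

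The members and lists were chosen with earlier results of these data known. Besides the members, the text names a fixed set of receptors and regulators, and of each list the 3 genes with the largest absolute log2 fold change among those called in WT CDAHFD against WT chow with a mean of at least 1 CPM. Likeness was Pearson's r of log2 CPM with a prior count of 2.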

Additional observations from a re-analysis of the deposited data

Results flagged for a closer look

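WT chow replicate 1 lay far from the other 3 libraries of its group in 5 of the 10 members, by the gap to its nearest neighbour over the range of the group (Dixon's test at its limit for 4 samples). It stood at 668 CPM in Saa1, 274 CPM in Saa2, 34.1 CPM in Saa3, 38.4 CPM in Orm2 and 30.01 CPM in Lcn2. Chance alone flags about 1 in 20 groups, and the 5 values come from the same library.

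The change with diet differed between the genotypes for Lcn2 (interaction log2 -4.81, adjusted p = 0.00630, edgeR's quasi-likelihood test) and for Crp (1.13, adjusted p = 0.00338). All 3 WT CDAHFD libraries were above all 4 WT chow libraries in Lcn2 and below them in Crp.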

How the results depend on the processing

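Over the 7 comparisons, each member value was set against its value under each alternative in turn, so a value is counted once per alternative. Of these pairs, 1252 kept their direction and their side of the threshold. Another 58 changed sign, 42 became called with the same sign and 3 lost their call. Of the 58, 5 were also called, all without WT chow replicate 1 (Saa1 and Saa2 in KO chow and in the interaction, Saa1 in KO CDAHFD), so 47 became called in all, and no value that changed sign was called in the fit of all libraries. The cause of these changes was not tested.

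With library size only, Orm3 in KO chow against WT chow went to 0.029, Orm1 to 0.36 in WT CDAHFD and 0.21 in KO CDAHFD against WT chow, Saa1 to 0.37 in KO CDAHFD against WT chow, Crp to 0.17 in KO CDAHFD against KO chow, and Hp to -0.018 in KO chow against WT CDAHFD (log2). With the clock score as covariate, Saa1 went to 0.66 in KO CDAHFD against WT chow, Crp to 0.037 in KO CDAHFD against KO chow, and in KO CDAHFD against WT CDAHFD Saa1 went to 0.51, Saa2 to 0.69, Saa3 to 0.064, Orm1 to 0.018, Orm2 to 0.10, Lcn2 to 0.0034, Hp to 0.089 and Crp to 0.020. Calls gained with the clock score were Orm1 lower in KO chow (-0.74, adjusted p = 0.0241) and Saa3 higher in WT CDAHFD (adjusted p = 0.0245) and KO CDAHFD (adjusted p = 0.0190) against WT chow, Orm2 in KO CDAHFD against KO chow, and Orm2 and Apcs in KO chow against WT CDAHFD. RLE scaling and DESeq2 both moved Crp in KO CDAHFD against KO chow to 0.0043.

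The replicate block moved Saa1 to 0.28 in KO CDAHFD against WT chow, Hp to 0.050 and Crp to 0.058 in KO CDAHFD against KO chow, and Hp to -0.10 in KO chow against WT CDAHFD. The labels do not say whether same-numbered libraries belong together. Correlations of their deviations ran from -0.24 to 0.27 over 15 pairs, of which 3 were over 0.1, and cannot settle it with so few libraries per group. The highest was that of WT chow replicate 1 with KO chow replicate 1. With the replicate block the members called numbered 3 in KO chow and 5 in either CDAHFD group against WT chow, and 2 in each of KO CDAHFD against KO chow, KO chow against WT CDAHFD and the interaction. Of 17358 genes tested, the block gave 3238 higher and 2195 lower in KO chow, and 4145 and 3652 in WT CDAHFD. In KO CDAHFD it gave 4245 and 3799, all against WT chow. It gave 427 and 213 in KO CDAHFD against KO chow, and 270 and 461 in KO chow against WT CDAHFD. The interaction gave 1055 and 2082. WT chow replicate 4 was alone in its block.

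The members called in KO CDAHFD against KO chow were 2 in place of 1 without the filter, with the replicate block, with the clock score and with only the 2 groups, and 0 with paralogs summed. In KO chow against WT CDAHFD they were 3 in place of 1 without the filter, with the clock score and with DESeq2, 2 with the replicate block, 4 with only the 2 groups and 0 with paralogs summed. With paralogs summed, which leaves 7 features, 2 were called in WT CDAHFD and 3 in KO CDAHFD against WT chow. Over all genes, calls in KO CDAHFD against KO chow were 652 higher and 423 lower in the main fit. They were 878 and 462 without the filter (of 30104 genes) and 883 and 765 with the clock score. In KO chow against WT CDAHFD the main fit gave 470 and 593, and no filter 565 and 832. There the clock score gave 1191 and 1242, and DESeq2 866 and 1208. Fits of only the 2 groups or of summed paralogs have no such count here.

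Leaving out each library in turn gave 4 to 9 members called in WT CDAHFD, 4 to 8 in KO CDAHFD and 2 to 8 in KO chow, all against WT chow, 1 to 2 in KO CDAHFD against KO chow, 1 to 4 in KO chow against WT CDAHFD and 2 to 7 in the interaction, the highest always without WT chow replicate 1. The log2 fold changes that crossed 0 ran, against WT chow, from -1.20 to 1.33 (Saa1), -0.96 to 2.09 (Saa2), -1.10 to 0.15 (Orm3) and -0.13 to 0.81 (Hp) in KO chow, from -0.32 to 2.05 (Saa1), -0.068 to 2.82 (Saa2), -0.32 to 0.14 (Orm1) and -0.018 to 0.68 (Hp) in WT CDAHFD, and from -0.48 to 1.88 (Saa1), -0.15 to 2.74 (Saa2) and -0.088 to 0.62 (Hp) in KO CDAHFD. They ran from -0.22 to 0.085 (Saa2) and -0.21 to 0.060 (Hp) in KO CDAHFD against WT CDAHFD, from -0.028 to 0.91 (Saa3), -0.16 to 0.84 (Orm1), -0.56 to 0.26 (Hp) and -0.19 to 0.17 (Crp) in KO CDAHFD against KO chow, and from -0.33 to 0.48 (Hp) and -0.23 to 0.12 (Crp) in KO chow against WT CDAHFD. In the interaction they ran from -1.50 to 1.03 (Saa1), -2.17 to 0.87 (Saa2), -0.78 to 0.48 (Orm3) and -0.88 to 0.064 (Hp). Where KO chow is left with 1 library, that library is assumed to vary like the other groups. Of these fits, the share of all genes called is given, further above, only for that without WT chow replicate 1. The other counts of members called have no background beside them.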
